A study of Mus musculus with 4 samples.

Results

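The genes described here are the 9 listed writers, cofactors and erasers of DNA methylation in mouse embryonic fibroblasts (MEF cells), which are connective tissue cells grown from embryos. They were taken by symbol from the 47937 gene entries of the deposited count table: Dnmt1, Dnmt3a, Dnmt3b, Uhrf1, Hells, Tet1, Tet2, Tet3 and Tdg. Total RNA was sequenced from untreated wild-type MEF cells and from MEF cells exposed to 50 µM genistein, a plant isoflavone, for 24 h, with 2 libraries in each group. The genotype field of the exposed samples names only the treatment, the vehicle of the untreated cells is not labelled, no deletion or transgene is named for either group, and no label states whether the 2 libraries of a group came from separate cultures, so p-values measure the spread between these libraries only. The libraries held 28591958 to 31464284 counts, and all 9 genes passed the filter on low counts.

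DNA methylation is the addition of a methyl group to cytosine, mostly where it precedes guanine (CpG). After replication the daughter strand is unmethylated, and the maintenance enzyme Dnmt1 copies the pattern with the help of Uhrf1, which recognises hemimethylated sites, and Hells, a chromatin remodeller that opens nucleosomes for it. Dnmt3a and Dnmt3b place methyl groups on unmodified DNA, the Tet enzymes oxidise methylcytosine, and Tdg, thymine DNA glycosylase, cuts out the oxidised base so that repair can restore cytosine. In mouse fibroblasts this system covers the major satellite repeats of pericentric heterochromatin and many retrotransposons.

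The 9 genes differed between the groups in both directions. Dnmt1, Uhrf1, Hells, Dnmt3b and Tdg fell, and Tet1, Tet2, Tet3 and Dnmt3a rose, the last by a small and fragile margin. All 9 passed an adjusted p-value of 0.05 in the quasi-likelihood test of edgeR (adjusted by Benjamini and Hochberg), but so did 71.7% of the 16240 genes tested (33.5% higher and 38.2% lower), so the share of members that passed is read against a high background. Dnmt3b was the member that also passed a log2 fold change of 1 and a mean normalised count of 100, thresholds met by 8.08% of genes (3.92% higher and 4.16% lower). Tet1 passed the fold threshold, but its mean of 63.3 normalised counts lay under the level threshold. A normalised count here is a count scaled to the average effective library size. The libraries of the groups did not overlap for any of the 9 genes, which was also so for 85.3% of all genes tested (40.7% higher and 44.6% lower).

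**Figure D1:**
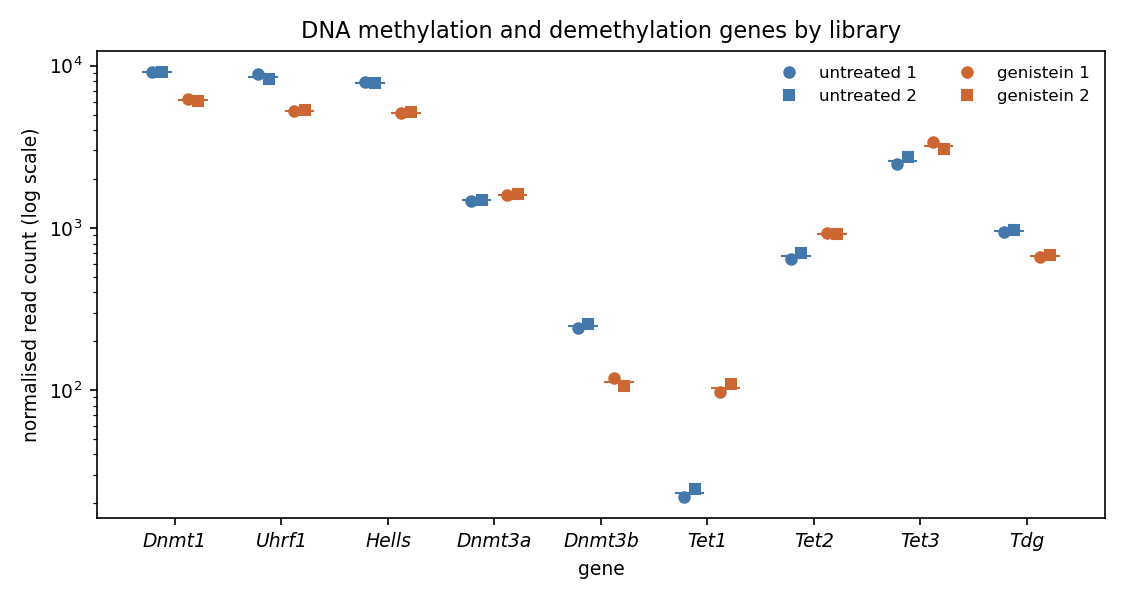
Normalised read count (log scale) of each gene in each of the 4 libraries, with circles for replicate 1, squares for replicate 2 and short lines for the group means. The largest separation is that of Tet1, at 22.0 and 24.4 without genistein and 97.5 and 109 with it.

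The maintenance genes were compared first. Dnmt1 (chromosome 9, 20907209 to 20959888 on GRCm38, minus strand) had 9148 and 9095 normalised counts without genistein and 6266 and 6064 with it. The groups lay far apart and the libraries within each were close. This was a fall of 32.4%, with a log2 fold change of -0.57 ± 0.04 (SE) (adjusted p = 1.4e-09, edgeR).

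Uhrf1 (chromosome 17, 56303321 to 56323486) had 8828 and 8229 normalised counts without genistein and 5225 and 5361 with it. Both genistein libraries were far below the lower untreated library. Its log2 fold change came to -0.69 ± 0.04 (SE), a fall of 37.9% (adjusted p = 1.9e-10, edgeR). Reads of Uhrf1 can be split with the processed pseudogene Gm5648, a copy without introns that matched a Uhrf1 transcript at 98.3% over 1590 bases. It took 382 and 378 normalised counts without genistein and 230 and 212 with it. With its counts added to those of Uhrf1 the log2 fold change was -0.69 again.

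Hells (chromosome 19, 38930915 to 38971051), also called Lsh, had 7896 and 7840 normalised counts without genistein and 5099 and 5180 with it. The fall of 34.7% was many times the spread of either group, with a log2 fold change of -0.61 ± 0.03 (SE) (adjusted p = 8e-11, edgeR). The 3 maintenance genes thus fell by similar amounts, between 32.4% and 37.9%.

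Genes of S phase moved in the same direction. Of 20 listed S phase genes, such as those of the Mcm2 to Mcm7 helicase, 20 fell, beside 38.2% of all genes, with a median log2 fold change of -0.56 against -0.033 over all genes. Their summed level was 92295 and 90283 normalised counts without genistein and 64694 and 65096 with it. The largest falls were those of Ccne1 and Ccne2, the E-type cyclins of the G1/S transition, at -1.61 and -1.41. The smallest was that of Rrm1, a ribonucleotide reductase subunit named after its value was seen, at -0.10. Of 12 listed G2 and M phase genes, 7 fell and 2 rose, beside 38.2% and 33.5% of all genes, with a median of -0.29. The largest falls were those of Ccna2 and Aurkb, at -0.79 and -0.70. The other genes of this list given here were named after their values were seen. Ccnb2 and Cenpf rose, at 0.19 and 0.22. Ccnb1, Aurka and Cdc20 did not pass, at -0.041, -0.076 and 0.050. Dnmt1, Uhrf1 and Hells are known to be transcribed mainly in cycling cells. From DNA content by flow cytometry, the paper reports that genistein moved most cells to the G2/M phase and left a reduced G1 population. The falls of S, G2 and M phase genes are thus no measure of the share of cells in each phase. The part of this cell cycle shift in the fall of Dnmt1, Uhrf1 and Hells was not tested. In bulk RNA fewer cells of a phase and less RNA per cell cannot be told apart.

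Promoter sequences were examined because the 3 maintenance genes moved together with S phase genes. A promoter here is the window from 250 bases before to 50 bases from a RefSeq start (GRCm38.p6), and the 9 genes matched 14 such starts. E2F factors, which drive S phase transcription, are known to bind words of the form TTTCCCGC, TTTCGCGC, TTTGCCGC or TTTGGCGC, which were searched on both strands. Such a word was present at a start of Dnmt1, Uhrf1 and Hells, and at no start of the other 6 genes. Its absence says only that these letters are not in the window. In Dnmt1 and Uhrf1 it was at a later start and not at the 5′-most one. Among the 5′-most starts of the 9 genes, only that of Hells held it, beside 2.33% of all genes. Among all 27025 genes of the promoter table, 2.60% had such a word at any start. Each word holds a CpG, and these shares are not matched for CpG content. Dnmt3b and Tdg also fell, at -1.15 and -0.52 on the log2 scale, and held no E2F word. A link between the word and the direction of change was not tested. Words of other promoter elements were searched too, and none of them marked Dnmt1, Uhrf1 and Hells alone. The word of one element was at a start of Dnmt1 and of Dnmt3b only. That of another was at starts of Dnmt1, Uhrf1, Tet3 and Tdg, and that of a further element at starts of every listed gene except Tdg. The windows that held an E2F word follow, 5′ to 3′ on the gene's strand, with these words in capitals (in Dnmt1 the first is the reverse complement). The Tet1 window, from the member with the largest rise, is printed as an example without the word.
Dnmt1, chr9:20952574-20952873, minus strand: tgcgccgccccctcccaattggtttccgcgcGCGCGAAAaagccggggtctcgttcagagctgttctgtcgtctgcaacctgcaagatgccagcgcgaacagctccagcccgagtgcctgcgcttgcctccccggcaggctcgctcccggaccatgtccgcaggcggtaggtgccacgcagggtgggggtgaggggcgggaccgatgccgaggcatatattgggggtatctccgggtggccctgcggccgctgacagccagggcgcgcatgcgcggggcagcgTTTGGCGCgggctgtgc
Uhrf1, chr17:56304063-56304362, plus strand: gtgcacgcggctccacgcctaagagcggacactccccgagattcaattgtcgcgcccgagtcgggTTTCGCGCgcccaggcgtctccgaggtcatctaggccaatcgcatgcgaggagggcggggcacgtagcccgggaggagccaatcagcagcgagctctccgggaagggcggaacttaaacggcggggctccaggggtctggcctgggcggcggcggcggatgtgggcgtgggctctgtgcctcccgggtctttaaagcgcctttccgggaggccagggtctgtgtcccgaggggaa
Hells, chr19:38930740-38931039, plus strand: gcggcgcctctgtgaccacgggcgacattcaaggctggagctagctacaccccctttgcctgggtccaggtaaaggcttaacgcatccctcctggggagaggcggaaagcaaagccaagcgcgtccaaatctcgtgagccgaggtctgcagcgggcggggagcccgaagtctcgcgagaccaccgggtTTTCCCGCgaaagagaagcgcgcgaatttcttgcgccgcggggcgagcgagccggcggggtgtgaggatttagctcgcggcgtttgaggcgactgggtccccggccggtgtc
Tet1, chr10:62887275-62887574, minus strand: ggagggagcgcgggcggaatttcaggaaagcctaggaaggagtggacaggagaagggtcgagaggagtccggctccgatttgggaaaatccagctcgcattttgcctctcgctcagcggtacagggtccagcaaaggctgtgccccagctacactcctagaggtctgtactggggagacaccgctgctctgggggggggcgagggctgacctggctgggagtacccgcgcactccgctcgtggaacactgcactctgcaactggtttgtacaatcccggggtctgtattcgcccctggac

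In the Dnmt1 window the words began at position -219, before the start site, and at position 34, after it. In Uhrf1 the word began at position -185 and in Hells at position -62. A match describes the letters and not binding. The windows of the 9 genes held between 2 and 57 CpG sites, and 13 of the 14 held more than the median of 7 over the 5′-most starts of all genes. The window with 2 sites belongs to the 5′-most start of Dnmt1, upstream of the one shown.

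The de novo enzymes parted. Dnmt3b (chromosome 2, 153649450 to 153687730), a writer of satellite methylation, had 241 and 256 normalised counts without genistein and 118 and 105 with it. Its level after genistein was under that of either untreated library by more than 100 normalised counts. It fell by 54.9%, with a log2 fold change of -1.15 ± 0.12 (SE) (adjusted p = 1.6e-07, edgeR).

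Dnmt3a (chromosome 12, 3806007 to 3914443) had 1473 and 1487 normalised counts without genistein and 1588 and 1615 with it. The rise was 8.20%, with a log2 fold change of 0.11 ± 0.04 (SE) (adjusted p = 0.029, edgeR). This call was fragile. It was lost without untreated 1, untreated 2 or genistein 2, at log2 fold changes of 0.10, 0.12 and 0.10 (adjusted p = 0.11, 0.07 and 0.12, edgeR), and with DESeq2 it was 0.089 (adjusted p = 0.33). Its size also depended on scaling. The log2 fold change was 0.18 with library totals and 0.16 with factors from genes alone (adjusted p = 0.0021 and 0.0042, edgeR).

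The Tet dioxygenases all rose, and by unequal amounts. Tet1 (chromosome 10, 62804570 to 62908996) was low in untreated cells, with raw counts of 22 and 23, whose exact 95% Poisson intervals of 13.8 to 33.3 and 14.6 to 34.5 cover counting error only. It had raw counts of 104 and 108 in the genistein libraries, with intervals of 85.0 to 126 and 88.6 to 130, which do not overlap the untreated ones. The normalised counts of 22.0 and 24.4 became 97.5 and 109, a 4.45-fold rise with a log2 fold change of 2.15 ± 0.20 (SE) (adjusted p = 6.4e-08, edgeR).

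Tet2 (chromosome 3, 133463679 to 133545139) had 645 and 696 normalised counts without genistein and 925 and 910 with it. It rose by 36.9%, a log2 fold change of 0.45 ± 0.06 (SE) (adjusted p = 3.8e-06, edgeR). The genistein libraries differed by less than the untreated ones and the gap between groups was several times larger than either spread.

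Tet3 (chromosome 6, 83362373 to 83459084) had 2468 and 2729 normalised counts without genistein and 3363 and 3068 with it. The means were 2599 ± 184 and 3215 ± 208 (SD, n = 2), and the groups did not overlap. It rose by 23.8%, a log2 fold change of 0.31 ± 0.05 (SE) (adjusted p = 3.5e-05, edgeR), and it lay between 0.23 without untreated 1 and 0.38 without untreated 2.

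**Figure D2:**
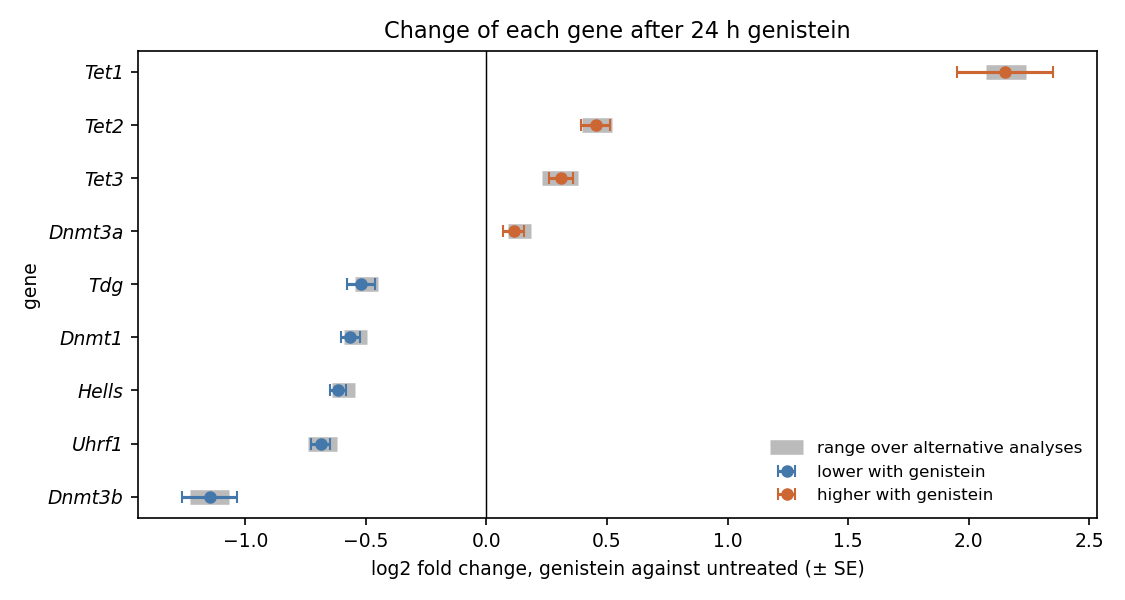
Log2 fold change of each gene, genistein against untreated, with its standard error as bars and the range over the alternative analyses as grey bands. The 5 genes below zero run from -1.15 (Dnmt3b) to -0.52 (Tdg), and the 4 above it from 0.11 (Dnmt3a) to 2.15 (Tet1).

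Tdg (chromosome 10, 82629828 to 82650799) had 947 and 972 normalised counts without genistein and 662 and 676 with it. It fell by 30.3%, with a log2 fold change of -0.52 ± 0.06 (SE) (adjusted p = 4.5e-07, edgeR). The size of its fall is uncertain, because near-identical copies took more reads than the gene itself. The processed pseudogene Gm9855 matched a Tdg transcript at 99.2% over 1194 bases and had 1236 and 1210 normalised counts without genistein and 575 and 581 with it. Tdg-ps, which matched at 98.7% over 2968 bases, had 263 and 258 normalised counts without genistein and 135 and 121 with it. The copies with counts, Gm5597 among them, held 61.1% of the summed reads in untreated cells. When they were added to Tdg, an analysis chosen after the data were seen, the sum was 2467 in both libraries without genistein and 1380 and 1392 with it, and the log2 fold change came to -0.83 ± 0.04 (SE) (adjusted p = 1.8e-11, edgeR). Tdg also shares 367 exon bases with Glt8d2 on the opposite strand, which had 31.0 and 33.9 normalised counts without genistein and 165 and 145 with it, and the strand setting of the counting is not given in the sources used here.

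**Figure D3:**
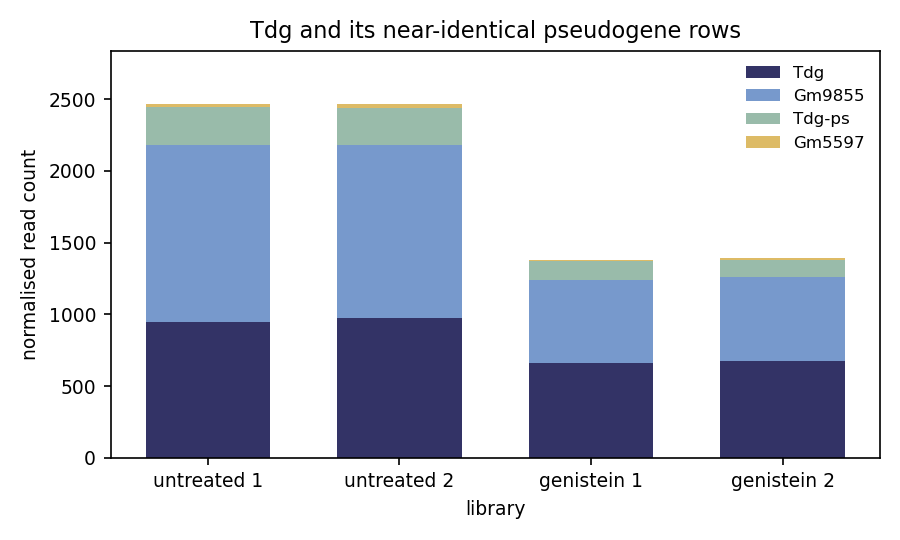
Normalised read count of Tdg and of the 3 processed pseudogene entries that nearly match it, stacked for each library. The stacks reach 2467 in both libraries without genistein and 1380 and 1392 with it, and the Gm9855 segment is taller than the Tdg segment in the untreated libraries.

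Levels were compared between genes per kilobase of annotated exon. In untreated cells Uhrf1 was highest at 2002 ± 99.4 normalised counts per kb (SD, n = 2), followed by Dnmt1 at 1237 ± 5.10 and Hells at 1092 ± 5.51. Tdg at 179, Tet3 at 156, Dnmt3a at 89.0, Dnmt3b at 48.7 and Tet2 at 39.7 followed, and Tet1 was lowest, at 1.42 and 1.58 normalised counts per kb in the single libraries. No neighbours in this order overlapped between their libraries. In genistein-exposed cells Tet3 at 193 stood above Tdg at 125, and Tet2 at 54.4 stood above Dnmt3b at 21.9, while the top 3 and Tet1 held their places. The order of Dnmt3b and Tet2 in untreated cells depended on the length used, since over the longest transcript Tet2 was higher, at 73.0 against 57.5. The order of Tdg and Tet3 with genistein depended on the pseudogene reads, since with those copies added Tdg was at 459 normalised counts per kb without genistein and 258 with it, above Tet3 in both groups.

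The balance of the families shifted in both genistein libraries. The summed level of Tet1, Tet2 and Tet3 per kb was 13.6% and 15.0% of that of Dnmt1, Dnmt3a and Dnmt3b without genistein and 27.1% and 26.0% with it. Tet3 made up 78.8% and 79.2% of the Tet level without genistein and 76.7% and 75.1% with it. Tet1 made up 0.758% and 0.764%, and 2.40% and 2.89%, so that its large fold change added little to the sum. Dnmt1 made up 90.1% and 89.8% of the DNMT level without genistein and 87.7% and 87.5% with it.

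**Figure D4:**
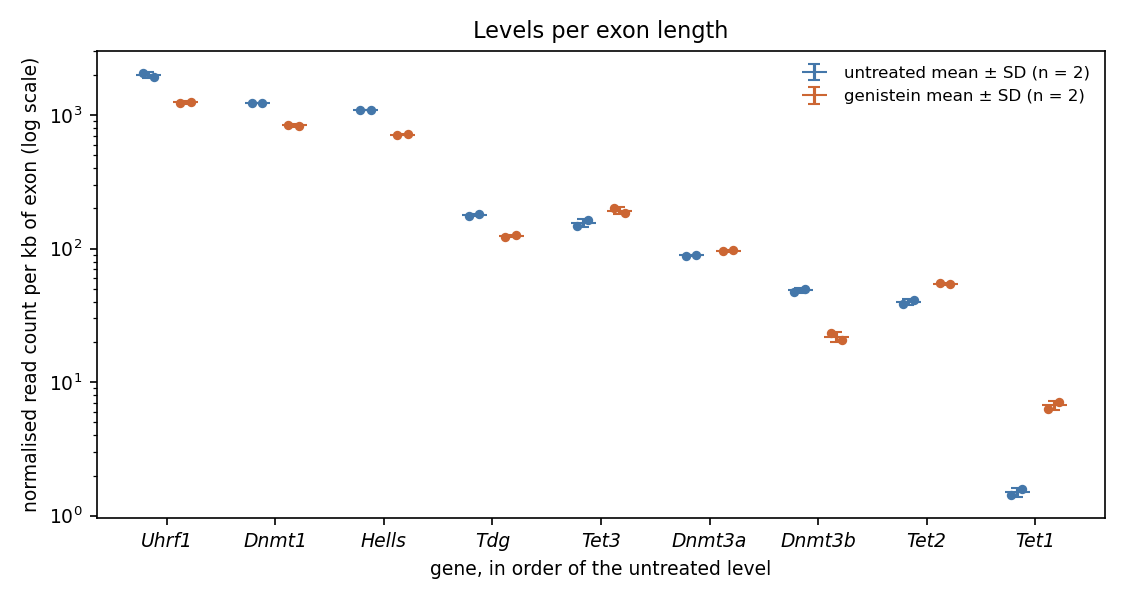
Normalised read count per kb of annotated exon (log scale) of each gene, ordered by the untreated level, with points for libraries and bars for mean ± SD (n = 2). Mean levels run from 2002 (Uhrf1) down to Tet1 in untreated cells and from 1243 to 6.69 in genistein-exposed cells, with Tet1 the lowest in both.

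The partners of the 9 genes were then examined in lists written from general knowledge of the pathway, with earlier results of these data known. Of 10 partners of maintenance methylation, 8 fell, beside 38.2% of all genes tested, with a median log2 fold change of -0.55 against -0.033 over all genes. Cdca7, which recruits Hells to chromatin, fell from 2817 and 2826 to 1196 and 1334 normalised counts, or -1.16 on the log2 scale (adjusted p = 2.7e-12, edgeR). Pclaf, the replication clamp factor whose ubiquitin marks recruit Dnmt1, fell from 4277 and 4179 to 2296 and 2446, at -0.83. Usp7, a deubiquitinase that binds both Dnmt1 and Uhrf1, fell from 5970 and 6028 to 3403 and 3486, at -0.80. Uhrf2 and Hdac1 did not pass, at -0.026 and 0.032 (adjusted p = 0.48 and 0.63, edgeR).

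Of 8 partners and relatives of the de novo enzymes, 6 passed the filter, and Dnmt3l, a cofactor of germ cells, was among those that did not, at no more than 4.69 normalised counts in any library. Trim28, the corepressor of KRAB zinc finger proteins, fell from 12023 and 11626 to 6178 and 6024 normalised counts, at -0.95 on the log2 scale (adjusted p = 6.9e-12, edgeR). Trdmt1, which resembles the DNA methyltransferases in sequence but methylates transfer RNA, fell from 256 and 260 to 149 and 175, at -0.67. Kdm1b, a histone demethylase, and Setd2, the histone methyltransferase whose mark guides Dnmt3 enzymes, passed narrowly at -0.14 and 0.078 (adjusted p = 0.039 and 0.044, edgeR). Kdm1b did not pass without untreated 1, untreated 2 or genistein 2, at -0.13, -0.15 and -0.11, and Setd2 not without untreated 1, untreated 2 or genistein 1, at 0.064, 0.084 and 0.059. In all, 4 fell and 1 rose, beside 38.2% and 33.5% of all genes, with a median of -0.13, and without untreated 2 the number that fell was 2.

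The next list held 10 genes of the methyl-CpG binding families, not all of which bind methylated DNA. Of these 10, 6 rose and 2 fell, where 33.5% of all genes rose and 38.2% fell. Their median log2 fold change was 0.27. Mbd6 rose from 255 and 267 to 677 and 499 normalised counts, at 1.18, and Mbd5 from 750 and 771 to 1410 and 1353, at 0.86 (adjusted p = 1.5e-07 and 4.2e-10, edgeR). Zbtb4, a zinc finger reader of methylated DNA, rose from 467 and 459 to 762 and 734, at 0.69. Mbd3, a subunit of the NuRD remodelling complex that binds methylated DNA poorly, fell from 2538 and 2447 to 1169 and 1166, at -1.09 (adjusted p = 1.4e-12, edgeR). Mbd2, its methyl-binding counterpart in that complex, fell from 1671 and 1455 to 1272 and 1232, at -0.32.

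Of 8 genes around the Tet enzymes, 2 rose and 3 fell, with a median log2 fold change of -0.070. These shares are near those over all genes (33.5% higher and 38.2% lower) and are no result about the list. Ogt, the sugar transferase that binds Tet proteins, rose from 3886 and 3934 to 6011 and 5767 normalised counts, at 0.59 (adjusted p = 1.2e-10, edgeR). D2hgdh, which removes the D form of hydroxyglutarate, an inhibitor of Tet enzymes, rose from 280 and 258 to 455 and 473 normalised counts, at 0.78. Dcaf1, part of a ubiquitin ligase that modifies Tet proteins, fell at -0.80, and Idh2, which makes the Tet cosubstrate in mitochondria, fell at -0.40.

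Base excision repair completes demethylation after Tdg. Of 16 genes of this step and of the Gadd45 family, 14 passed the filter, 7 fell and 3 rose, beside 38.2% and 33.5% of all genes, with a median log2 fold change of -0.15. Ung, which removes uracil from DNA and is itself an S phase gene, fell from 928 and 883 to 198 and 193 normalised counts, at -2.21 (adjusted p = 1.8e-13, edgeR). Apex1, the endonuclease that cuts the strand after a glycosylase, fell from 3438 and 3230 to 1527 and 1608, at -1.09, and Lig3, the ligase of this pathway, fell at -0.74. The 3 that rose were the Gadd45 genes, stress-induced factors linked to demethylation and growth arrest. Gadd45a, a known p53 target, rose from 86.9 and 77.3 to 416 and 437 normalised counts, at 2.37 (adjusted p = 1e-11, edgeR). Gadd45g and Gadd45b rose at 1.09 and 0.34.

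The methyl donor S-adenosylmethionine is made from methionine by Mat2a and depends on folate-bound carbon. Of 14 genes of its supply, 10 fell and 2 rose, where 38.2% of all genes fell and 33.5% rose, with a median log2 fold change of -0.56. Mthfd1l, which releases formate from mitochondria, fell from 4272 and 4181 to 1377 and 1451 normalised counts, at -1.58 (adjusted p = 6.2e-15, edgeR). Shmt1 and Mthfd1, cytosolic enzymes of the folate cycle, fell at -0.97 and -0.86. Mat2a and Ahcy, which clears the inhibitory product of methylation, were named after their values were seen and fell at -0.80 and -0.86. Mat2b, the regulatory subunit of Mat2a, rose at 0.15 (adjusted p = 0.0027, edgeR), and it did not pass with DESeq2, at 0.13 (adjusted p = 0.084).

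**Figure D5:**
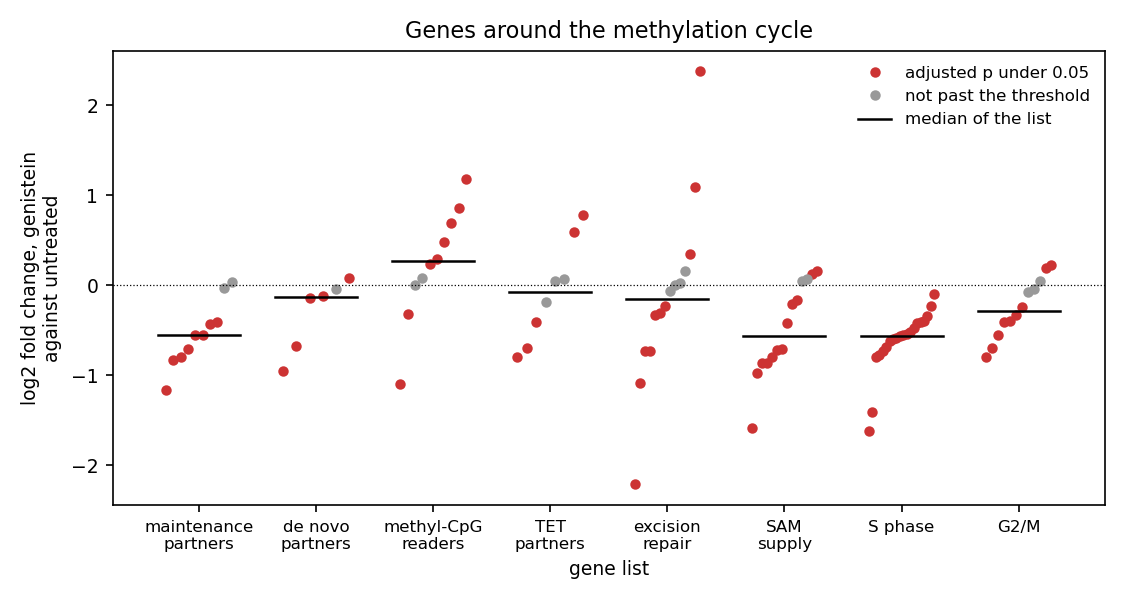
Log2 fold change, genistein against untreated, of each kept gene in 8 lists around the methylation cycle, with red points past an adjusted p-value of 0.05 (edgeR), grey points short of it and a line at the list median. The maintenance, S-adenosylmethionine and S phase lists have medians of -0.55, -0.56 and -0.56. The list labelled methyl-CpG readers, whose members do not all bind methylated DNA, has 0.27.

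Transcripts that methylation is known to repress in fibroblasts were read as a last comparison. Of 17 germline genes with methylated promoters in somatic cells, 2 passed the filter and 8 had no count in any library. Brdt, a testis bromodomain protein, rose from 18.0 and 22.2 to 66.6 and 72.9 normalised counts, at 1.79 on the log2 scale (adjusted p = 2.5e-06, edgeR). Ddx4, a germ cell helicase, fell from 80.9 and 97.4 to 45.0 and 45.5, at -0.97. The repeat entry IAPEz-int, an endogenous retrovirus known to be repressed through Dnmt1, was not silent in the untreated libraries. It had 12799 and 13070 normalised counts without genistein and 16322 and 16594 with it. Its log2 fold change came to 0.35 ± 0.05 (SE) (adjusted p = 4e-06, edgeR), below the median of 0.69 over the 1118 repeats kept. DNA methylation itself was not measured in these libraries.

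The cell label was checked against markers. Of 12 fibroblast markers, 10 passed the filter. Of these, 7 fell and 2 rose, beside 38.2% and 33.5% of all genes tested. The median log2 fold change was -0.21, against -0.033 over all genes. Col1a1 and Col3a1 had 33267 normalised counts or more in each library, while Thy1 had no count and Lum at most 9.99. The summed level of the 12 markers was 436975 and 449223 without genistein and 426301 and 417348 with it. Of 8 pluripotent and germ cell markers, where Dnmt3b and Tet1 are known to be high, 2 passed the filter, and their summed level was 36.0 and 38.1 without genistein and 51.6 and 65.8 with it. The 2 that passed it were Nanog and Pou5f1. Nanog had 26.0 and 26.5 normalised counts without genistein and 35.6 and 41.5 with it. Pou5f1 had 6.99 and 10.6 without genistein and 13.1 and 15.2 with it. Neither rise passed the threshold (adjusted p = 0.052 and 0.14, edgeR). Zfp42 and Utf1 had no count. Of 9 blood, endothelial and epithelial markers, 2 passed the filter, and Epcam and Adgre1 had no count. Krt14, a keratin of skin, fell from 711 and 668 to 114 and 100.2 normalised counts, and Cd68, a lysosomal protein of macrophages that other cells also make, rose from 83.9 and 65.6 to 211 and 213. Their part in the changes above was not tested.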

How the data were processed

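Total RNA of untreated and genistein-exposed MEF cells, 2 libraries per group, had been depleted of ribosomal RNA, sequenced in paired ends, trimmed with Trim Galore, aligned with STAR to mm10 and counted by the authors with TEtranscripts over GENCODE genes and repeat subfamilies. The deposited values are raw counts, not normalised. Of 49383 entries, 1 named neither gene nor repeat and was left out (0.00208% to 0.00314% of the counts). Symbols matched 47224 gene identifiers.

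Genes and repeats were fitted together with edgeR 4.0.16 in R 4.3.3: filterByExpr by group (17358 entries kept), TMM factors, the quasi-likelihood test, and Benjamini-Hochberg adjustment over all kept entries. A standard error is the absolute log2 fold change divided by the square root of F. With 2 against 2 libraries an exact permutation test cannot go below p = 0.333, so this model was used. The libraries of a group were not duplicates: over genes and repeats, chi-square divided by its degrees of freedom was 5.89 (untreated) and 13.2 (genistein). The fit was checked on simulated counts. Exon lengths, positions and transcripts came from a GENCODE annotation of GRCm38, the same assembly as mm10 but a later release than the one counted. Copies were found with blastn 2.17.0 (at least 95% identity over 200 bases).

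The genes and lists were chosen with earlier results of these data known. The text names all 9 genes and, from each list around the methylation cycle, up to 3 genes per direction with the largest change past an adjusted p-value of 0.05 (up to 2 per cell cycle list); others are marked, and some genes that the rule names are not reported here. No test was run on a list. Alternatives covered scaling, filtering, DESeq2 1.42.0, a replicate block, thresholds, exon length and leaving out each library.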

Additional observations from a re-analysis of the deposited data

How the results depend on the processing

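Of 44 log2 fold changes followed singly under the alternatives, none changed direction, and 417 of the 442 values kept their side of the threshold. Of the 9 genes, 8 kept their call in every alternative. Dnmt3a was the exception: at 0.088 with no filter and 0.089 with DESeq2 it missed the threshold, and it lay from 0.10 to 0.13 when each library was left out. Other losses included those of Setd2, Kdm1b and Mat2b. With a mean normalised count over 10, 1 gene, Tet1, was past the fold and level thresholds upward.

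Counts of small lists moved with calls near the threshold. The de novo list had 0 higher genes with RLE factors, no filter, the replicate block and DESeq2, and 0 to 1 when each library was left out. It had 2 lower genes with library totals and with factors from genes alone, and 2 to 4 when each library was left out. The methyl donor list had 1 higher gene with RLE factors, no filter and the replicate block, 0 with DESeq2, and 1 to 2 when each library was left out. The germline list had 2 higher genes with no filter. Over the longest transcript the summed Tet level was 17.7% of the DNMT level in untreated cells and 32.4% in genistein-exposed cells. The cause of these shifts was not tested, except that more entries are tested without a filter and fewer libraries enter when one is left out.

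The labels give both groups replicate numbers 1 and 2. The check of pairing gave r = -0.026 between deviations from the group means in the 2 pairs with a shared number, and the number is treated as a name only. With the replicate block the log2 fold changes were -0.57 for Dnmt1, -1.15 for Dnmt3b, 2.15 for Tet1 and 0.11 for Dnmt3a (adjusted p = 0.042, edgeR). Depth limits Tet1 most, since its untreated level rests on 22 and 23 reads.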

Other observations

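Some entries lie inside the genes described or share their exons. The entry 5430434F05Rik lies within Tet3 on the same strand without sharing its exons, and it had raw counts of 99 and 100 without genistein and 182 and 162 with it. B230319C09Rik, on the opposite strand of Tet3, had 5 and 4 raw counts without genistein and 15 and 13 with it. Dnmt3aos, the antisense gene of Dnmt3a that shares 133 exon bases with it, had no count in any library, and Dnmt3bos had 1 in all.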
